A study of Mus musculus with 28 samples.

Results

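Acetylation of histone H3 at lysine 27 (H3K27ac), read by chromatin immunoprecipitation and sequencing, was compared between macrophages treated with dexamethasone (Dex, a synthetic glucocorticoid) and macrophages treated with vehicle, in 6 of the 28 samples of the series. The Dex group was 3 libraries of cells given 100 nM Dex for 24 h, and the vehicle group was 3 libraries whose titles state no time. Both groups were primary bone marrow-derived macrophages of C57BL/6 mice, male and 8 to 10 weeks old, differentiated over 5 days in medium with L-cell conditioned medium, which supplies the growth factor CSF1, and the labels name no transgene or deletion. Libraries were taken by their group label, and all 63313 deposited peaks entered, of which 59881 passed the filter on low counts and were tested. The same table holds 3 libraries each of macrophages given corticosterone (Cort, 500 nM) or IL4 (10 ng/ml). A second table holds 15 libraries of the glucocorticoid receptor (GR), 4 of them after Dex and 4 after vehicle. The labels do not say that libraries came from separate mice or cultures, so p-values measure the spread between these libraries, which may be technical.

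Dex binds GR, a nuclear receptor that waits in the cytoplasm and moves to the nucleus once it holds a steroid. There it binds DNA sites built from the hexamer AGAACA followed after 3 bases by its mirror image TGTTCT, or joins other factors already on DNA, and recruits enzymes that add or remove acetyl groups on histones. H3K27ac marks active enhancers and promoters, so its gain or loss shows where such elements became more or less active, although a peak near a gene is not a measure of that gene's transcript. In macrophages, glucocorticoids are known for raising genes of scavenging and of the uptake of dying cells, and for restraining inflammatory genes.

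Sequence is shown for 4 promoters where both readouts rose with Dex: the 250 bases before the start of each gene lay wholly inside a GR peak and inside an H3K27ac peak that were each called higher. They were chosen after their values were seen, and 24 promoters overlapped such a GR peak by at least 1 base. Slc10a6 carries sulfated steroids into cells (chr5:103629404-103629653, minus strand). C1qb is a subunit of complement C1q, which tags dying cells for uptake (chr4:136886201-136886450, minus strand). Cd300lf is a mostly inhibitory receptor of myeloid cells (chr11:115133993-115134242, minus strand). Mt1 is metallothionein 1, a metal-binding protein and a classic glucocorticoid-induced gene (chr8:94178839-94179088, plus strand). Sequences are from RefSeq on GRCm38.p6 (mm10), 5′ to 3′, and capitals mark the 15 bases closest to the full GR site.
Slc10a6: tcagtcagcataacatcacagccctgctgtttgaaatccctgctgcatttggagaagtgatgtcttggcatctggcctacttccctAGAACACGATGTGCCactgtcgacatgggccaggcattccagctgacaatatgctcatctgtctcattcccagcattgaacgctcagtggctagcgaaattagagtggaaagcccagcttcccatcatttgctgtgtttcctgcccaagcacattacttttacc
C1qb: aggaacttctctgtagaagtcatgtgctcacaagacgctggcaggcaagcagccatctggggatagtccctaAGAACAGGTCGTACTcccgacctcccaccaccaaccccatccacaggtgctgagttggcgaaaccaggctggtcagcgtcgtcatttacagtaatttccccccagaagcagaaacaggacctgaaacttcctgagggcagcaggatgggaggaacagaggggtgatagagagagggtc
Cd300lf: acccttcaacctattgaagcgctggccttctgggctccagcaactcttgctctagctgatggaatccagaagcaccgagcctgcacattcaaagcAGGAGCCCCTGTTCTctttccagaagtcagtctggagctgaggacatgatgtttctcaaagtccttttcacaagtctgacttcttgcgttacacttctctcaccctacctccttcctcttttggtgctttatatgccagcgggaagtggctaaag
Mt1: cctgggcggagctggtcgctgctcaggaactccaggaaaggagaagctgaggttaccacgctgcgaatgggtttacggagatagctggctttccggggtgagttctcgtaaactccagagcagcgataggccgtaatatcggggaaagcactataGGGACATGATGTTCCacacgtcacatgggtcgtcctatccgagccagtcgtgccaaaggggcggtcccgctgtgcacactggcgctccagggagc
Of the 12 fixed bases of the site, the capitals differ at 2 in Slc10a6 and C1qb and at 3 in Cd300lf and Mt1. Of all 32851 promoters of that length, 1.56% hold a stretch with at most 2 differences on either strand and 12.3% one with at most 3. These are matches of letters, not tests of binding.

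At the Slc10a6 promoter the H3K27ac peak had 48.5, 36.5 and 44.9 CPM (reads scaled to library size by TMM) in the Dex libraries, against 16.1, 10.98 and 14.3 CPM in the vehicle libraries. The 3 Dex libraries were all above the 3 vehicle libraries, and the log2 change, Dex over vehicle, was 1.66 ± 0.12 (SE, n = 3 each). The GR peak there had 60.5, 43.6, 41.1 and 54.4 CPM in the Dex libraries, against 8.49, 6.69, 8.89 and 5.17 CPM in the vehicle libraries. GR was thus higher in each of the 4 Dex libraries, by a log2 change of 2.74 ± 0.33 (adjusted p = 9.94e-05, edgeR's quasi-likelihood test). The C1qb promoter sits in the wide peak over C1qc described below, where GR had 48.8, 39.7, 52.4 and 49.7 CPM in the Dex libraries, against 19.8, 5.57, 12.7 and 11.6 CPM in the vehicle libraries. At the Mt1 promoter H3K27ac was 83.9, 77.7 and 82.6 CPM in the Dex libraries, against 60.9, 60.9 and 67.1 CPM in the vehicle libraries, a small shift with no overlap (log2 change 0.37 ± 0.09, edgeR adjusted p = 0.00581). GR changed by 0.78 ± 0.25 at Mt1 and by 1.11 ± 0.35 at Cd300lf on the log2 scale, and at Cd300lf the 4 Dex libraries stood at 25.5, 26.2, 26.8 and 30.7 CPM, against 18.4, 12.3, 13.97 and 5.17 CPM in the vehicle libraries.

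Dex changed H3K27ac in both directions in about equal number. Of 59881 tested peaks, 5937 (9.91%) were higher and 6194 (10.3%) lower with Dex, 12131 (20.3%) in all, at an adjusted p under 0.05 (edgeR's quasi-likelihood test with Benjamini-Hochberg adjustment and replicate number as a block). The large changes were mostly gains: 330 peaks rose and 153 fell by 2 or more on the log2 scale, and 66 rose and 4 fell by 3 or more. The log2 change ran from -3.70 to 5.32, and its median over all tested peaks was 0.004, so changes are relative to the bulk of the peaks. All 3 Dex libraries were above all 3 vehicle libraries at 6723 peaks (11.2%) and below them at 6904 (11.5%). The libraries held 7873794, 13065208 and 13872923 reads in peaks with Dex, against 7451304, 12666689 and 15695771 with vehicle, and replicates of a group had Pearson correlations across peaks of 0.946 to 0.969 on the log2 scale. The called count was 3138 without the replicate block, 7794 without Dex replicate 3, 7742 without vehicle replicate 3, 7832 without both replicate 1 libraries and 6693 without both replicate 3 libraries.

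**Figure D1:**
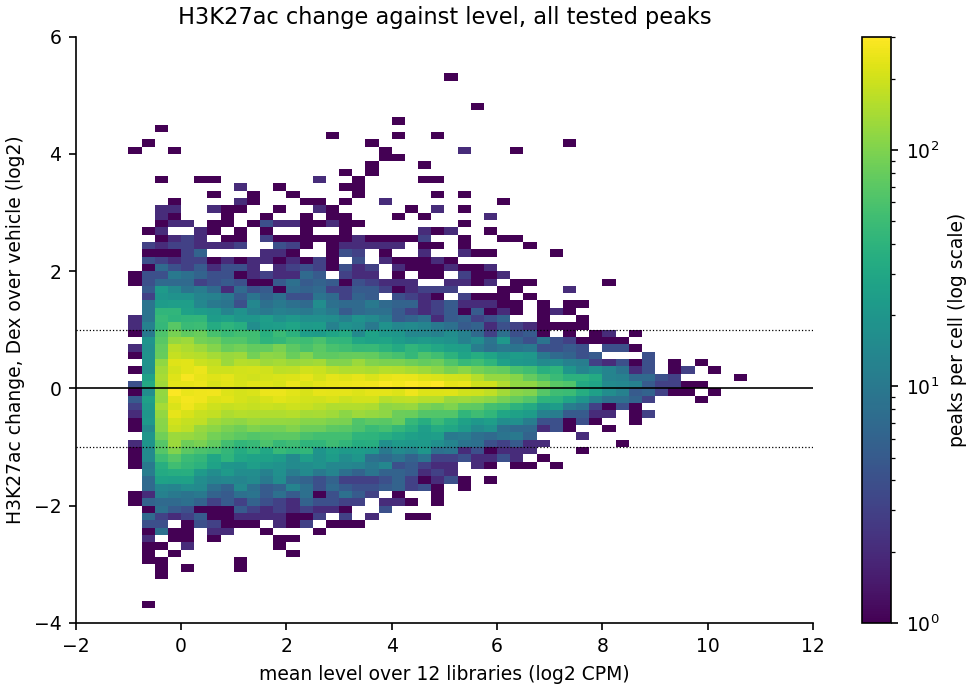
Log2 change in H3K27ac (Dex over vehicle, y axis) against mean log2 CPM (x axis) for all 59881 tested peaks, shaded by the number of peaks, with dotted lines at 1 and -1. The cloud is centred near 0 and its upper side reaches farther, with 66 called peaks at 3 or more against 4 at -3 or less.

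Called peaks were longer than the rest: the median length was 1820 bp for higher peaks, 1630 bp for lower peaks and 931 bp for peaks not called. Averaged over the Dex, vehicle, Cort and IL4 libraries together, the median signal was 6.13 CPM per kb for higher peaks. It was 4.88 CPM per kb for lower peaks and 3.92 CPM per kb for peaks not called. Summed as group means, the higher peaks held 219.2 kCPM with Dex, against 144.8 kCPM with vehicle, over 15.6 Mb. The lower peaks held 102.4 kCPM with Dex, against 155.0 kCPM with vehicle, over 13.4 Mb. These sums describe peaks that were chosen by the same call.

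Among peaks of at least median signal with a named gene within 50 kb, the largest gain lay 4.78 kb from Armc12 and also within 50 kb of Fkbp5, the GR co-chaperone that limits the receptor's affinity for its steroid (17:28521675-28526085). It had 116, 103 and 109.6 CPM in the Dex libraries, against 6.19, 4.01 and 2.67 CPM in the vehicle libraries. Signal was low with vehicle and high in each Dex library, with no overlap, and the log2 change was 4.76 ± 0.18 (edgeR adjusted p = 2.67e-14). The peak in Zbtb16, which encodes the zinc-finger repressor PLZF (9:48722671-48725109), had 40.3, 24.8 and 37.7 CPM in the Dex libraries, against 4.21, 1.07 and 0.620 CPM in the vehicle libraries. Vehicle replicate 1 stood highest of its group and still far below the lowest Dex library, and the change was 4.37 ± 0.29. Klf9, a Krüppel-like zinc-finger factor, had a peak 4.23 kb away (19:23132836-23136994) with 165, 124 and 154 CPM in the Dex libraries, against 13.1, 7.70 and 7.07 CPM in the vehicle libraries. Its change was 4.04 ± 0.14 (edgeR adjusted p = 1.62e-14), with each Dex library well above each vehicle library.

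Ddit4, an inhibitor of the growth kinase complex mTORC1, had 2 adjoining peaks among the 12 largest gains, of which the nearer to Anapc16 (10:59969317-59971359) had 53.2, 29.5 and 50.0 CPM in the Dex libraries, against 3.22, 1.64 and 1.18 CPM in the vehicle libraries. The other (10:59966427-59969109) had 29.1, 16.8 and 33.6 CPM in the Dex libraries, against 2.60, 1.97 and 1.12 CPM in the vehicle libraries. In both, Dex replicate 2 was the lowest of its group and lay above all vehicle libraries, and the log2 changes were 4.55 ± 0.21 and 3.86 ± 0.24. Ppp1r21, an endosomal protein, had a peak with 72.1, 95.7 and 79.9 CPM in the Dex libraries, against 7.31, 4.34 and 3.91 CPM in the vehicle libraries. The remaining members of the 12, near Ube2s, Mctp2, Drap1, Ubxn2b, Rtkn2 and Hhipl1, changed by 3.66 to 4.37. The 12 were taken by size among called peaks whose groups do not overlap, so that feature is no result about them.

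Losses in the same class of peaks were smaller. The peak 15.1 kb from Sptbn1, which encodes a beta chain of the membrane skeleton protein spectrin (11:30081208-30084348), had 4.77, 5.87 and 3.07 CPM in the Dex libraries, against 13.3, 35.4 and 20.2 CPM in the vehicle libraries, a log2 change of -2.34 ± 0.23. Replicate 2 was the highest of each group, and the groups did not overlap. A peak in Mecom, a zinc-finger factor of blood progenitors (3:29990565-29993819), had 8.32, 16.0 and 8.33 CPM in the Dex libraries, against 33.1, 63.6 and 47.0 CPM in the vehicle libraries, and fell by 2.17 on the log2 scale. A peak 48.8 kb from Ifng, the gene of interferon gamma (10:118494690-118496413), had 2.94, 3.78 and 1.61 CPM in the Dex libraries, against 7.80, 15.9 and 12.5 CPM in the vehicle libraries. It lies far from the gene's start, and the log2 change was -2.20 ± 0.26. Further named losses, near Btbd11, Nme8, Dscam, Cks1brt, Rasal2, Myl4 and Poc1b, changed by -2.35 to -2.18.

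**Figure D2:**
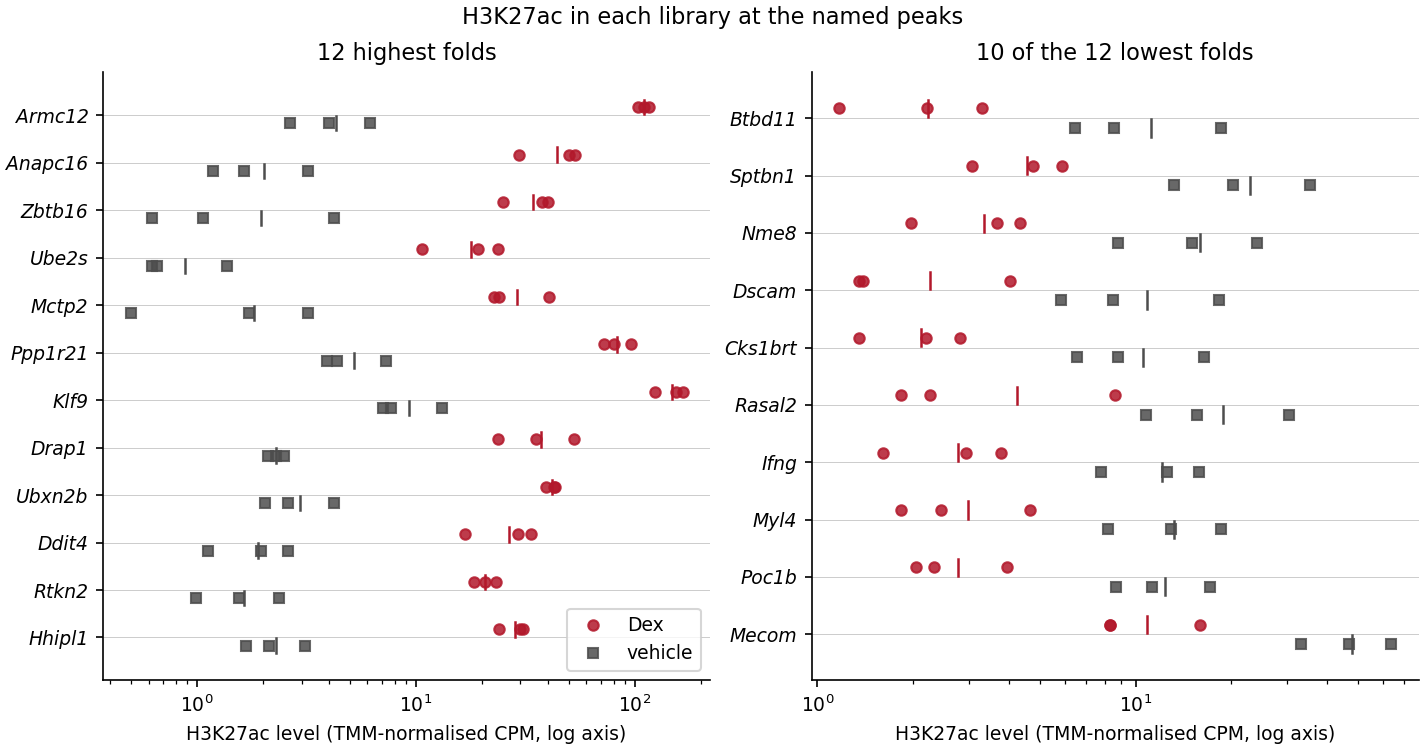
H3K27ac in CPM (x axis, log scale) at the 12 peaks with the highest and at 10 of the 12 with the lowest log2 change, each with its 3 Dex libraries above its 3 vehicle libraries and ticks at the group means. Dex points lie at 103 to 116 CPM for Armc12 and vehicle points at 2.67 to 6.19 CPM, whereas the lower peaks keep a measurable Dex signal, such as 3.07 to 5.87 CPM for Sptbn1.

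Replicate 2 stood out at the lower peaks in both groups. It was the highest library of its group at 55.8% of lower peaks with Dex and 55.9% with vehicle, against 38.3% and 37.6% over all tested peaks, and at 28.3% and 28.5% of higher peaks. At the 12 losses with the lowest log2 change it was the highest in 12 of 12 peaks in each group. Without both replicate 2 libraries 5245 peaks were higher and 5346 lower, close to the full counts.

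By the amount of signal gained, the 8 leading peaks lay near Ms4a4a, Armc12, Frmd4b, Klf13, Tlr7, C1qc, Stab1 and Tsc22d3. The peak over the start of Ms4a4a, a membrane protein of tissue macrophages (19:11366589-11379409), had 484, 461 and 439.8 CPM in the Dex libraries, against 137, 154 and 119.7 CPM in the vehicle libraries, a log2 change of 1.76 ± 0.10. Tsc22d3, which encodes the glucocorticoid-induced leucine zipper protein GILZ, had a peak 23.9 kb away (X:140503569-140515614) with 247, 205 and 262 CPM in the Dex libraries, against 47.2, 44.4 and 46.8 CPM in the vehicle libraries. The vehicle libraries lay close together and the Dex libraries stood far above them, a log2 change of 2.36 ± 0.09 (edgeR adjusted p = 2.28e-14). The peak over C1qc, another C1q subunit (4:136879798-136899808), had 638, 626 and 513 CPM in the Dex libraries, against 405, 457 and 332 CPM in the vehicle libraries, and rose by 0.58 ± 0.08. Stab1, the scavenger receptor stabilin-1, had 592, 512 and 589 CPM in the Dex libraries, against 384, 379.5 and 347 CPM in the vehicle libraries. Tlr7, the endosomal sensor of single-stranded RNA, had 480.1, 529 and 549.7 CPM in the Dex libraries, against 272, 366 and 305 CPM in the vehicle libraries. The groups did not overlap at either gene. The peaks near Armc12, Frmd4b and Klf13 had log2 changes of 4.18, 0.49 and 0.94.

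The largest amounts lost came from a peak 17.8 kb from Slc18a1, a vesicular amine transporter (8:69003027-69019949). It had 178.5, 221 and 217 CPM in the Dex libraries, against 337, 390.4 and 436 CPM in the vehicle libraries, a log2 change of -0.92 ± 0.08. Fat3, an atypical cadherin, had a peak (9:16304240-16314771) with 141, 125.3 and 120.5 CPM in the Dex libraries, against 212, 251 and 229 CPM in the vehicle libraries. Its spread within a group was small beside the fall of 0.84 on the log2 scale. A peak of Sptlc2, a subunit of the enzyme that starts sphingolipid synthesis, had 51.9, 84.1 and 57.5 CPM in the Dex libraries, against 116, 183 and 136 CPM in the vehicle libraries. Near Acta1, Tal2, Rapgef5, Por and Kcnn4 the log2 changes were -1.33, -1.32, -0.66, -0.35 and -0.37, and the calls near Tal2, Por and Kcnn4 were lost without the replicate block, as were those near Frmd4b, C1qc and Rasal2.

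A gene start lay in 12.9% of higher peaks (767), in 5.17% of lower peaks (320) and in 13.7% of peaks not called, so lost acetylation was mostly away from promoters. The start table covers 15970 of 20005 named genes, which makes these shares lower bounds. Another 49.9% of higher and 50.8% of lower peaks lay inside a gene, with exons and introns not told apart, and 37.2% and 44.1% lay between genes. Starts were rarest where folds were large: they lay in 17.7% of the 3977 peaks that rose by less than 1 on the log2 scale, in 3.44% of the 1630 that rose by 1 to 2, and in 0 of the 153 that fell by 2 or more, which allows a share of up to 2.38% (exact binomial interval, counting error only). Median peak length in these bins was 2256, 1085 and 637 bp, and the part of length in this trend was not tested.

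Among peaks of at least median signal over the start of a named gene, Ddit4 led the gains (10:59946748-59953412), with 173, 93.3 and 186 CPM in the Dex libraries, against 17.2, 17.7 and 14.3 CPM in the vehicle libraries. Dex replicate 2 was again the lowest of its group, far above the vehicle libraries, and the log2 change was 3.14 ± 0.16. Ccnd3, the cell cycle activator cyclin D3, had 103, 103 and 103 CPM at its start in the Dex libraries, against 23.2, 27.03 and 11.97 CPM in the vehicle libraries. Klf9 had 76.6, 59.0 and 70.6 CPM in the Dex libraries, against 12.3, 14.5 and 15.8 CPM in the vehicle libraries. Both starts were higher in each Dex library, by log2 changes of 2.37 ± 0.16 and 2.25 ± 0.12. F13a1, the coagulation factor XIII A chain made by macrophages, changed by 2.43, Il15ra, the IL15 receptor alpha chain, by 2.02, and Cd38, an NAD-degrading surface enzyme, by 1.91. Lifr, Ube2h, Pik3ip1, Slc10a6 and Tsc22d3 followed at 1.64 to 1.87.

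In the same class the largest loss was at Slc13a3, a transporter of dicarboxylates (2:165469669-165474717), with 9.67, 16.9 and 5.48 CPM in the Dex libraries, against 26.0, 59.3 and 31.1 CPM in the vehicle libraries. Replicate 2 was the highest in each group, the groups did not overlap, and the log2 change was -1.90 ± 0.19 (edgeR adjusted p = 1.90e-07). Kcna3, a voltage-gated potassium channel, had 5.14, 4.74 and 5.85 CPM in the Dex libraries, against 16.3, 11.4 and 14.4 CPM in the vehicle libraries. Dlg1, a scaffold protein of cell junctions, had 25.9, 25.1 and 29.2 CPM in the Dex libraries, against 50.0, 90.3 and 76.0 CPM in the vehicle libraries. Kcna3 fell by 1.40 and Dlg1 by 1.42 on the log2 scale. The starts of Hdac9, Arhgap32, Tmed3, Slc35g1, Zfp541, Fcrls, Trim2, Tex9 and F9 fell by 1.00 to 1.48. These starts were singled out after their values were seen. The 250 bases before the start of Ddit4 and of Slc13a3, the leading gain and loss of that class, are printed here (RefSeq, GRCm38.p6). They lie at chr10:59951771-59952020, minus strand, for Ddit4 and at chr2:165473198-165473447, minus strand, for Slc13a3. They are in lower case because neither holds the hexamer AGAACA on either strand, and their closest match to the full GR site is not marked. The GR-bound Mt1 promoter above lacks that exact hexamer too, and only 16.1% of all 32851 promoters hold it, so its absence does not set these starts apart.
Ddit4: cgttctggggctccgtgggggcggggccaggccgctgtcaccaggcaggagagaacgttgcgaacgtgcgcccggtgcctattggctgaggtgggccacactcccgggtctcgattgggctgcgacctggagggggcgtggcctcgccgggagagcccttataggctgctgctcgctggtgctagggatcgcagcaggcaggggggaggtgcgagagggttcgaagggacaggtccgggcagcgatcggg
Slc13a3: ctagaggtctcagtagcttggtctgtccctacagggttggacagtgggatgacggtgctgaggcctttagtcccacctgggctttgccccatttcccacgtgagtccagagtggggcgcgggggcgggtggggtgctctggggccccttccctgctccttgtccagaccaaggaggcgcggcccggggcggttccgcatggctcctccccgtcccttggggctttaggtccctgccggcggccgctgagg

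Short motifs were counted in the promoters of the 3 classes. The hexamer AGAACA stood on either strand in 12.4% of starts in higher peaks, 12.8% in lower peaks and 10.5% in peaks not called, against 16.1% of all 32851 promoters, each read over 250 bases before to 50 after the start. The full GR site, AGAACA followed after 3 bases by TGTTCT, stood in 0 of 1271 starts in higher peaks, 0 of 540 in lower peaks and 1 of 9972 in peaks not called. Only 3 of all 32851 promoters held it, so these counts are too few to compare. The AP-1 site TGANTCA stood in 5.59%, 7.96% and 4.53% of the 3 classes, against 6.75% of all promoters. For the cyclic AMP response site TGACGTCA the shares were 2.91%, 0.926% and 2.82%, against 1.55% of all promoters. The PU.1 site GAGGAAGT stood in 2.99%, 4.44% and 3.03%, against 2.44%, and the C/EBP site TTGCNNAA in 9.36%, 10.7% and 7.59%, against 9.56%. None of these shares was tested, and most changed peaks lie away from starts, so the letters under them were not read.

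The largest gain of all had no named gene within 50 kb. It lay 60.2 kb from the nearest (19:23055641-23058868), with 84.7, 82.2 and 85.01 CPM in the Dex libraries, against 3.72, 2.38 and 0.930 CPM in the vehicle libraries, a log2 change of 5.32 ± 0.24 (edgeR adjusted p = 3.63e-13). A second such peak (7:74988387-74991848) had 63.7, 62.5 and 60.7 CPM in the Dex libraries, against 4.09, 3.85 and 2.23 CPM in the vehicle libraries. The Dex libraries lay close together at both peaks, and all vehicle libraries were far lower. The lowest such peak (16:55588120-55591094) had 6.73, 32.4 and 7.60 CPM in the Dex libraries, against 39.3, 79.1 and 48.4 CPM in the vehicle libraries, a log2 change of -2.14 ± 0.22. Of higher peaks 88.8% had a named gene within 50 kb, of lower peaks 83.8% and of peaks not called 90.4%.

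Called peaks crowded around some genes. Each peak was given to its nearest named gene within 50 kb, which made 12933 genes with a tested peak, of which 2810 had a higher peak, 2844 a lower one and 571 both. At least 3 higher and no lower peak were counted at 411 genes, and at least 3 lower and no higher peak at 406. Dock10, a guanine nucleotide exchange factor, had the most higher peaks, 20 of 43, and these summed to a mean of 736 CPM with Dex, against 407 CPM with vehicle. Irf2, an interferon regulatory factor, had 17 of 33 higher, and Man2a1, a Golgi mannosidase, 17 of 22, with sums over called peaks of 447.5 CPM with Dex against 155 CPM with vehicle at Man2a1. Fkbp5 had 15 of 16 peaks higher, spread over 114 kb, with a median log2 change of 2.48 among them, and Zbtb16 14 of 16 with a median of 2.83. Summed over its called peaks, Fkbp5 had 434 CPM with Dex, against 86.1 CPM with vehicle. Sgms1, which makes sphingomyelin, had 18 of 33 higher with a median of 0.72.

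Lpp, a LIM-domain protein of focal adhesions, had the most lower peaks, 29 of 70 over 628 kb, with a median log2 change of -0.93 among them and sums over them of 553 CPM with Dex, against 864 CPM with vehicle. Prkcb, protein kinase C beta, had 18 of 26 lower, with sums of 186 CPM with Dex against 373 CPM with vehicle. Myo1e, a membrane-bound myosin motor, had 16 of 36 lower and 1 higher. Rapgef5, an exchange factor for the GTPase Rap, had 13 of 35 lower, and Mtss1, which bends membranes and binds actin, 12 of 30. Snd1, a nuclease of RNA regulation, had 12 of 40 lower and 1 higher. Of these 6 genes Prkcb, Myo1e and Snd1 had no called lower peak with a GR peak in it.

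Neighbouring peaks often moved together. Runs of at least 5 tested peaks in a row that were called the same way numbered 95 for gains and 67 for losses, and those of at least 8 numbered 29 and 10. The longest run of gains covered 16 peaks over 118 kb around Cd163 (6:124263199-124381295), with log2 changes of 0.75 to 3.33. Summed over the run the signal was 549, 542 and 558 CPM in the Dex libraries, against 195, 154.5 and 164 CPM in the vehicle libraries. The next covered 14 peaks over 94.8 kb between Fos and Jdp2, which encode members of the AP-1 family (12:85510350-85605194), with sums of 444, 520.1 and 425 CPM in the Dex libraries, against 163, 143 and 163 CPM in the vehicle libraries. In both runs the 3 Dex libraries lay close together and well above the vehicle libraries. A run of 12 peaks at Zbtb16 had sums of 143, 91.0 and 151 CPM in the Dex libraries, against 21.6, 15.2 and 12.96 CPM in the vehicle libraries, and a run of 12 at Prps1 and Tsc22d3 spanned 54.0 kb with changes of 1.30 to 3.59. A run of 11 peaks spanned Mpzl2, Mpzl3, Jaml and Scn2b, genes of cell adhesion proteins apart from the channel subunit Scn2b, with a median change of 2.43.

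The longest run of losses covered 13 peaks over 109.6 kb in Prkcb (7:122296115-122405747), with log2 changes of -1.90 to -0.50. Its sums were 93.6, 160.5 and 111 CPM in the Dex libraries, against 188, 331 and 261 CPM in the vehicle libraries, and replicate 2 was the highest of each group. Runs of 11 lay at Basp1, a membrane-associated protein of the cell cortex, and in Wwox, an oxidoreductase gene, with medians of -0.76 and -1.26. At Wwox the sums were 124, 299.6 and 124 CPM in the Dex libraries, against 234, 464 and 264 CPM in the vehicle libraries, so Dex replicate 2 lay above vehicle replicates 1 and 3 and the groups overlapped. The pairs of the same replicate number were each lower with Dex. The 5 runs of gains held 3 to 5 peaks with a GR peak each, and the 3 runs of losses held 0 at Prkcb, 1 at Basp1 and 0 at Wwox.

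**Figure D3:**
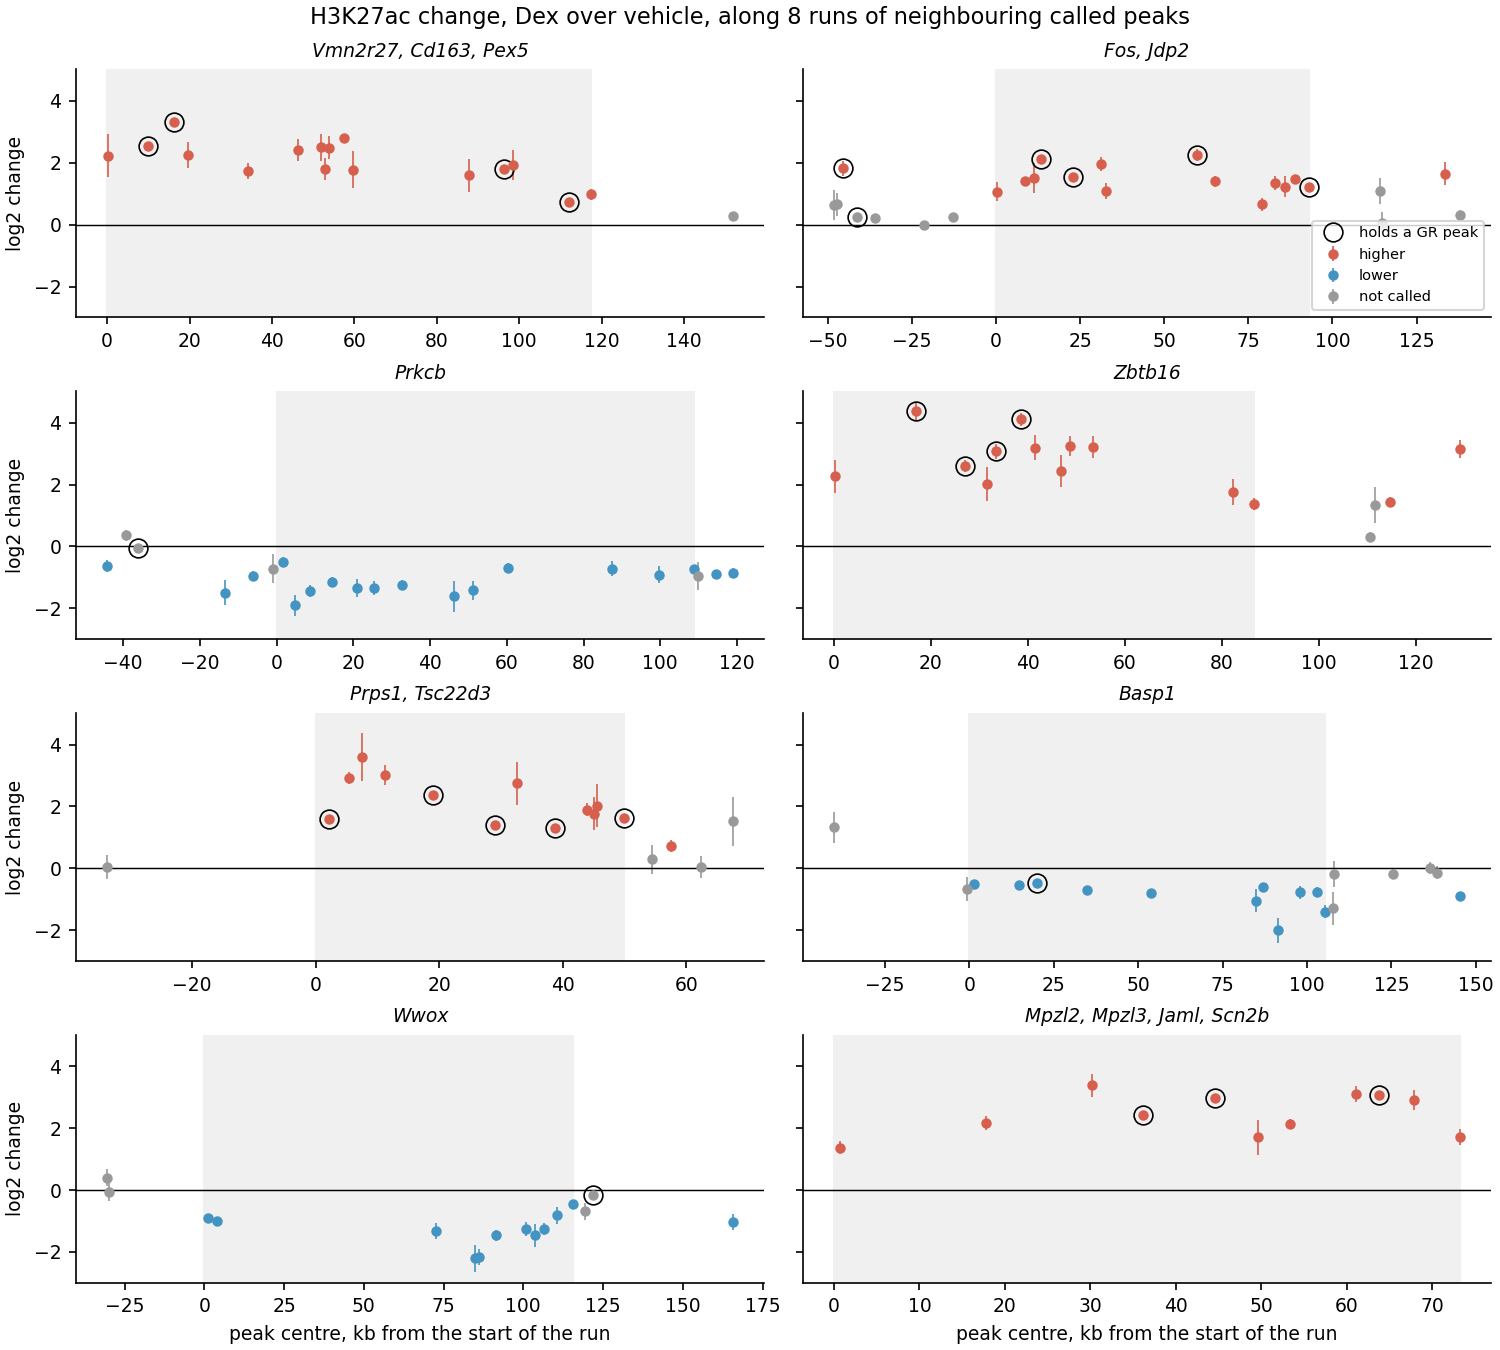
Log2 change (Dex over vehicle) with its standard error for the tested peaks in and within 50 kb of the 8 longest runs. The x axis is distance in kb from the start of the run, with the run shaded grey and peaks that hold a GR peak ringed in black. Inside the shading the 5 runs of gains each carry 3 to 5 ringed peaks, and the runs at Prkcb and Wwox carry 0. Beside the Prkcb and Wwox runs a ringed peak lies outside the shading.

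Gained H3K27ac peaks held a GR peak more often than lost peaks or peaks not called. A GR peak overlapped 23.2% of higher peaks (1379, exact binomial interval 22.2% to 24.3%), 4.46% of lower peaks (276, 3.96% to 5.0%) and 4.71% of peaks not called. GR itself was called higher with Dex at 763 of 5183 tested GR peaks (14.7%), and such a GR peak lay in 9.45% of higher, 0.178% of lower and 0.274% of not called H3K27ac peaks. Read the other way, 703 tested H3K27ac peaks held a GR peak that was called higher, of which 561 (79.8%) were higher and 11 (1.56%) lower, against the 9.91% and 10.3% over all peaks. Of 3202 peaks with a GR peak that was not called higher, 25.5% were higher and 8.28% lower. Of 55976 with no GR peak, 8.14% were higher and 10.6% lower. By size of the gain, the share with a GR peak was 22.8% for a log2 change under 1, 20.1% for 1 to 2, 41.3% for 2 to 3 and 56.1% (37 of 66) for 3 or more. It shrank with the loss, at 6.23% for falls under 1, 1.40% for falls of 1 to 2 and 0 of 153 peaks beyond. Median peak length fell in the same order, at 1995, 1045 and 637 bp, and the part of length in this trend was not tested. Counting only GR peaks that the deposited table marks as passing its filter, whose criterion it does not state, 13.3% of higher and 0.872% of lower peaks held one. Among the 1734 peaks called higher without the replicate block 37.8% did.

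Peak length moved with this share, since long peaks can hold more GR peaks. With peaks split into 4 classes of equal size by length, the longest class, of 2017 bp or more, held a GR peak in 38.3% of higher, 10.3% of lower and 13.5% of not called peaks. In the next class the shares were 16.1%, 1.34% and 3.41%. In the shortest class, of 200 to 476 bp, they were 1.81%, 0.227% and 2.63%, so higher peaks did not stand above peaks not called there. Lower peaks held fewer GR peaks than peaks not called within each class.

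**Figure D4:**
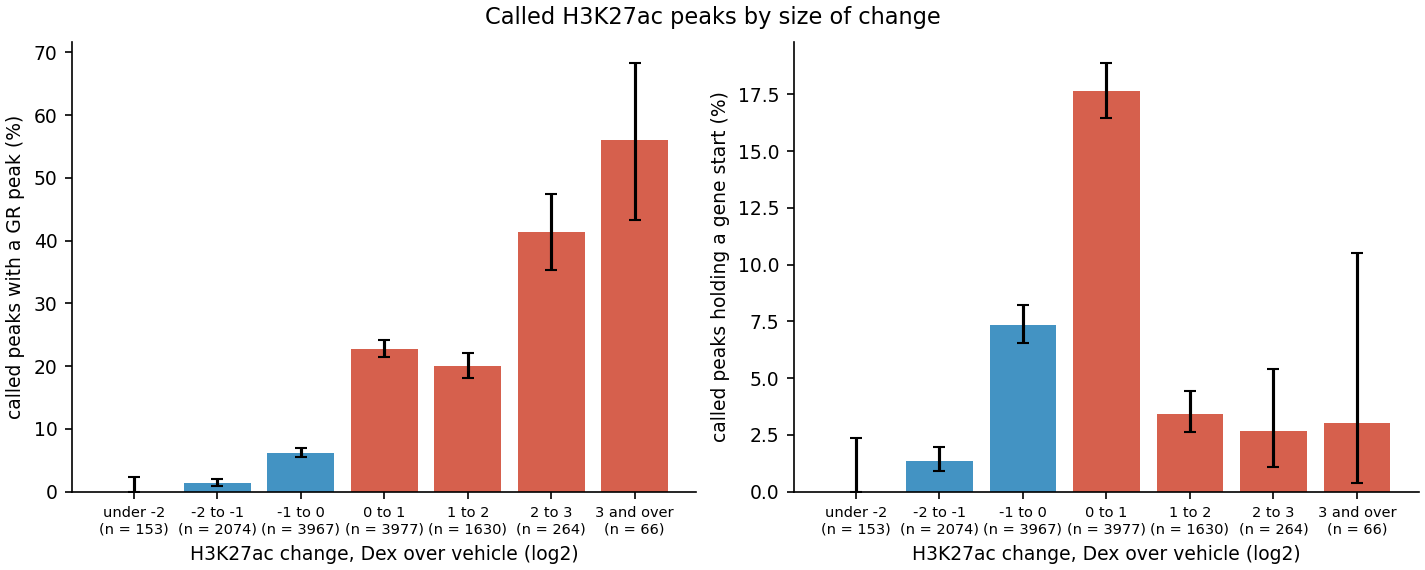
Percent of called H3K27ac peaks that overlap a GR peak and percent that hold a gene start (y axis) by bin of log2 change, Dex over vehicle (x axis), with exact binomial 95% intervals that cover counting error only. GR overlap is 56.1% in the bin of 3 or more and 0 of 153 peaks in the lowest bin, while gene starts peak at 17.7% for gains under 1. Peak length differs between bins, with a median of 637 bp in the lowest and 2256 bp for gains under 1.

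GR occupancy was read at the named gains. In the Zbtb16 peak, GR (9:48723543-48724003) was at 91.7 to 141 CPM over the 4 Dex libraries, against 6.35 to 14.2 CPM over the 4 vehicle libraries, a log2 change of 3.67 ± 0.35 with 4.00 and 3.35 within the 2 labelled batches. Near Klf9 (19:23134921-23135263) it was at 31.6 to 45.5 CPM with Dex, against 2.23 to 5.17 CPM with vehicle, and in the Tsc22d3 peak at 31.6 to 53.8 CPM with Dex, against 1.29 to 8.49 CPM with vehicle. None of these ranges overlapped. Per1, a repressor of the circadian clock, had GR at 60.7 to 96.2 CPM with Dex, against 5.72 to 15.6 CPM with vehicle, in a start peak (11:69095029-69101124) whose H3K27ac was 225, 289 and 207.5 CPM in the Dex libraries, against 100.2, 100.7 and 82.2 CPM in the vehicle libraries. Fkbp5 had GR at 20.0 to 36.1 CPM with Dex, against 1.42 to 12.9 CPM with vehicle. In each H3K27ac peak among the 12 largest gains and the textbook genes, only the GR peak with the smallest p was read. All 17 GR peaks read this way were called higher, so a change above 0 in each batch follows largely from that choice. These changes ran from 0.78 to 4.31 in batch 1 and from 1.32 to 4.40 in batch 2.

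Genes known to be induced by glucocorticoids mostly gained. Of 37 listed, 34 had a tested peak, and 23 of them had higher peaks alone, 5 lower peaks alone, 2 both and 4 neither. Of their 247 peaks 44.1% were higher and 6.07% lower, against 9.91% and 10.3% over all peaks, with a median log2 change of 0.46 against 0.004. Over all 12933 genes with a tested peak, 2810 had a higher peak, 2844 a lower one and 571 both. Members of this and the other lists were chosen with earlier results of these data known, so these shares are no independent result. Several peaks of 1 gene count separately in them. For each named gene the peak with the smallest p among those nearest to it is given. Fkbp5 had such a peak (17:28406715-28411358) at 90.4, 58.5 and 92.0 CPM in the Dex libraries, against 17.3, 11.7 and 14.4 CPM in the vehicle libraries, a log2 change of 2.47 ± 0.11. Per1 changed by 1.35 ± 0.09, and Dusp1, a phosphatase that shuts off MAP kinases, by 0.68 ± 0.09. At Dusp1 H3K27ac was 355, 482 and 337 CPM in the Dex libraries, against 238, 252 and 238 CPM in the vehicle libraries, with no overlap. Zfp36, which speeds the decay of cytokine mRNAs, had 561, 781 and 564 CPM in the Dex libraries, against 504, 636 and 498.5 CPM in the vehicle libraries. Those groups overlapped, and the call (log2 change 0.21 ± 0.07, edgeR adjusted p = 0.0371) was lost under DESeq2, under total-count scaling and without the replicate block. Sgk1, a kinase of salt and glucose transport, went down at a weak peak (10:21902012-21903285), with 2.81, 2.89 and 1.10 CPM in the Dex libraries, against 4.71, 9.75 and 5.89 CPM in the vehicle libraries.

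**Figure D5:**
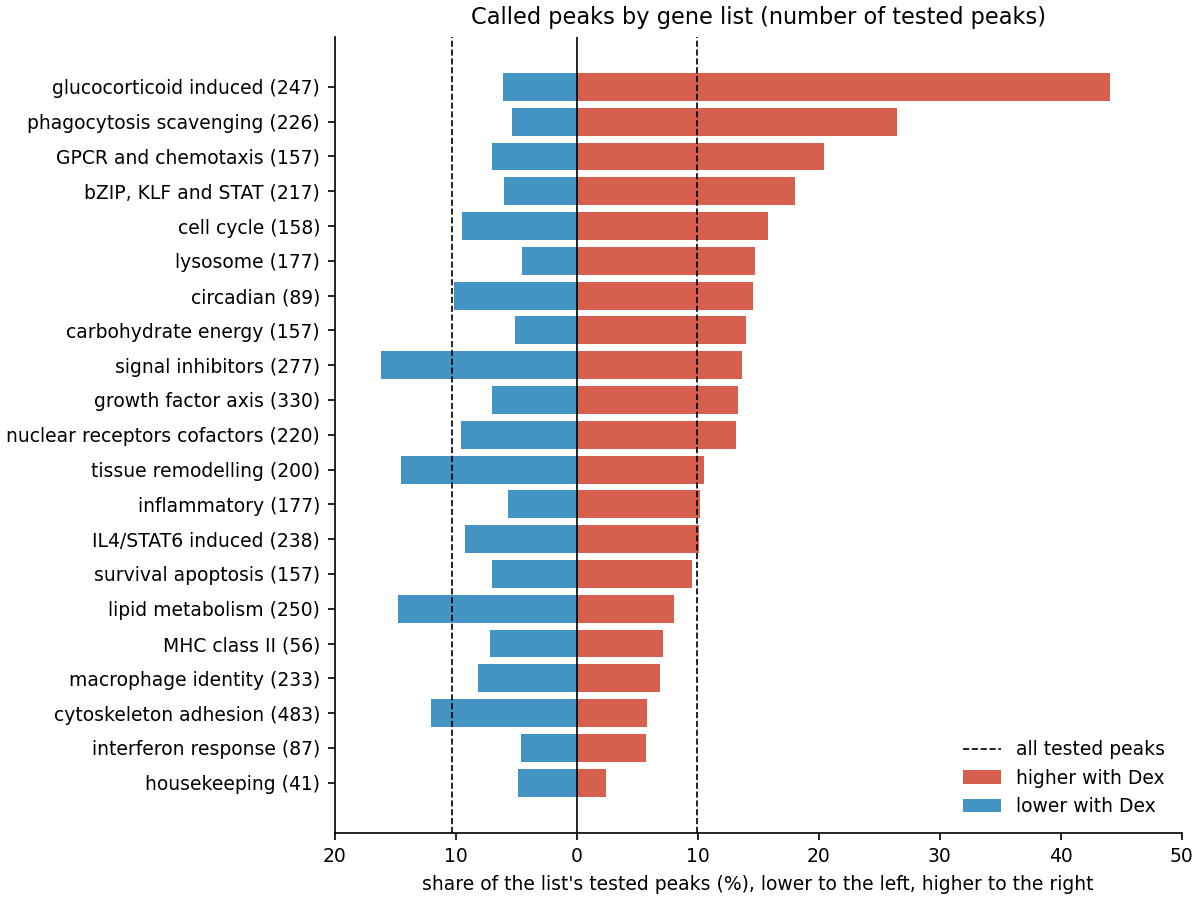
Percent of the tested peaks of each gene list that were higher (to the right) or lower (to the left) with Dex, with dashed lines at the 9.91% and 10.3% of all tested peaks. Glucocorticoid-induced genes reach 44.1% higher and scavenging genes 26.5%, and signal inhibitors have the highest share of lower peaks, 16.2%, beside 13.7% higher. The lists were chosen with earlier results of these data known.

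Genes of nuclear receptors and their cofactors had calls in both directions, with 13.2% of 220 peaks higher and 9.55% lower. These shares are near the 9.91% and 10.3% over all peaks. Nr3c1, the gene of GR itself, had a lower peak (18:39516445-39518198) with 5.26, 11.1 and 5.26 CPM in the Dex libraries, against 13.6, 21.0 and 16.4 CPM in the vehicle libraries, and fell by 1.28 on the log2 scale. A peak in Ncoa1, a coactivator of nuclear receptors, fell by 1.86, and one 25.4 kb from Pparg, the fatty acid receptor, by 0.83. A peak in Rxra, the partner of Pparg, rose by 0.98, with groups that overlapped. Of 27 measured nuclear receptor and cofactor genes, 9 had higher peaks alone, 5 lower alone, 4 both and 9 neither. Over all 12933 genes with a tested peak, 2810 had a higher peak, 2844 a lower one and 571 both. Among AP-1, KLF and STAT family genes 39 of 217 peaks were higher and 13 (5.99%) lower. A peak 44.95 kb from Fos (12:85522225-85525505) had 67.5, 103 and 74.8 CPM in the Dex libraries, against 18.2, 16.8 and 20.9 CPM in the vehicle libraries, a rise of 2.12 ± 0.13 with no overlap. A peak in Klf13 rose by 2.92 ± 0.13. A peak 31.2 kb from Klf6 fell by 1.52 ± 0.22, with groups that overlapped.

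Clock genes had 13 (14.6%) of 89 peaks higher and 9 (10.1%) lower, against 9.91% and 10.3% over all peaks. Per2, a repressor like Per1, had 17.98, 14.3 and 19.9 CPM in the Dex libraries, against 5.70, 2.95 and 1.80 CPM in the vehicle libraries, and rose by 2.44 ± 0.24. A peak 1.66 kb from Nfil3, a repressor that follows the clock, rose by 1.67. A peak 43.6 kb from Arntl, the activator of the clock also called BMAL1, fell by 1.30, with groups that overlapped. Feedback inhibitors of signalling had calls in both directions, with 13.7% of 277 peaks higher and 16.2% lower. Pias1, which restrains cytokine signalling, rose by 2.62 ± 0.20, and Zfp36l1 and Spred1 by 0.82 and 0.73.

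Genes of scavenging and of the uptake of dying cells came next after the glucocorticoid-induced list in the share of higher peaks. Of their 226 peaks 26.5% were higher and 5.31% lower, against 9.91% and 10.3% over all peaks, with a median log2 change of 0.23. Of 26 measured genes 12 had higher peaks alone, 3 lower alone, 3 both and 8 neither. Over all 12933 genes with a tested peak, 2810 had a higher peak, 2844 a lower one and 571 both. Cd163, the scavenger receptor for haemoglobin bound to haptoglobin, with a peak 23.6 kb away (6:124277633-124281022), had 80.8, 92.4 and 81.7 CPM in the Dex libraries, against 9.91, 8.76 and 7.07 CPM in the vehicle libraries, a rise of 3.33 ± 0.13. Mertk, a receptor tyrosine kinase for dying cells (2:128743557-128754460), had 192, 206 and 223 CPM in the Dex libraries, against 74.5, 89.0 and 89.9 CPM in the vehicle libraries, a rise of 1.29 ± 0.09. Both genes are also in the glucocorticoid-induced list. Fcgr3, a receptor for IgG, had 231, 174 and 213 CPM in the Dex libraries, against 125.1, 101 and 114.9 CPM in the vehicle libraries. Itgb5, the integrin beta 5 chain used in uptake, rose by 1.57 ± 0.16.

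The list of the lysosome, which digests what is taken up, had 14.7% of 177 peaks higher and 4.52% lower, against 9.91% and 10.3% over all peaks. Gusb, the enzyme beta-glucuronidase, rose by 1.41, Lamp1, a membrane protein of lysosomes, by 0.64, and Atp6v0d1 and Atp6v0d2, subunits of the proton pump, by 0.90 and 1.2. Lipid genes leaned the other way, with 8.0% of 250 peaks higher and 14.8% lower. Lpl, lipoprotein lipase (8:68879520-68890067), had 43.2, 51.1 and 57.4 CPM in the Dex libraries, against 91.0, 95.2 and 120.6 CPM in the vehicle libraries, and fell by 1.01. Apoc2, the cofactor of Lpl, rose by 1.28, and Fabp4, a fatty acid carrier, by 1.13. Pla2g7, which breaks down platelet-activating factor, had 397, 365 and 384 CPM in the Dex libraries, against 208, 202 and 201 CPM in the vehicle libraries, with narrow groups that did not overlap. Among 157 peaks of sugar and energy genes 22 were higher and 8 lower.

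Inflammatory genes had a share of higher peaks close to the background: of 177 peaks 10.2% were higher and 5.65% lower, against 9.91% and 10.3% over all peaks, and 17 of 32 measured genes had no called peak. A weak peak 45.2 kb from Csf2, the cytokine GM-CSF, changed by -1.69, with means of 1.54 CPM with Dex against 4.72 CPM with vehicle. The peak over the start of Csf1, the macrophage growth factor, changed by 1.2. A peak 15.4 kb from Ccl3, a chemokine, changed by 0.82 ± 0.14. Nlrp3, the inflammasome sensor, had 295.5, 392 and 256 CPM in the Dex libraries, against 217, 229 and 203 CPM in the vehicle libraries, a rise of 0.52 ± 0.08. Interferon genes had 5 (5.75%) of 87 peaks higher and 4 (4.6%) lower, both under the shares of all tested peaks, and 18 of 25 measured genes had none. Ifih1, a sensor of viral RNA, fell by 1.23, and Usp18, which removes ISG15 from proteins, by 1.44. The groups at the Usp18 peak overlapped.

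Genes known to respond to IL4 had 10.1% of 238 peaks higher and 9.24% lower, close to the 9.91% and 10.3% of all tested peaks. Chil3, a secreted chitinase-like protein of alternatively activated macrophages (3:106170194-106171454), had 12.9, 7.40 and 9.80 CPM in the Dex libraries, against 2.72, 1.31 and 0.682 CPM in the vehicle libraries, a rise of 2.81 ± 0.25. Il4ra, the IL4 receptor alpha chain, rose by 1.02, Kdm6b, a demethylase of the same lysine 27, by 1.17, and Ppargc1b, a coactivator of mitochondrial genes, fell by 1.21. Macrophage identity genes had 6.87% of 233 peaks higher and 8.15% lower, both under the shares of all tested peaks. The peak over the start of Cebpa rose by 0.78, with groups that overlapped, and one 35.6 kb from Irf8 by 0.95. In the separate list of macrophage markers, weak peaks in Itgam and Spi1 changed by -1.26 and -0.86. Their means were 2.68 and 2.43 CPM with Dex, against 6.28 and 4.45 CPM with vehicle. The peaks of Spi1 summed to a mean of 726 CPM, so its lower peak is a small part of its signal.

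Cytoskeleton and adhesion genes leaned to losses mainly through few gains, with 28 (5.8%) of 483 peaks higher and 58 lower. Over all peaks 9.91% were higher and 10.3% lower, so the share of lower peaks in this list was near the background. Of 42 measured genes 6 had higher peaks alone, 16 lower alone, 6 both and 14 neither. Over all 12933 genes with a tested peak, 2810 had a higher peak, 2844 a lower one and 571 both. These gene counts do not allow for the number of peaks per gene. Itgal, the alpha chain of the integrin LFA-1, with a peak 1.61 kb away (7:127292042-127294533), had 6.61, 17.7 and 8.55 CPM in the Dex libraries, against 23.5, 47.1 and 29.3 CPM in the vehicle libraries, and fell by 1.65 with no overlap. Tns1, tensin 1 of focal adhesions (1:74006401-74009384), went the other way by 2.14 ± 0.12. Tissue remodelling genes had 10.5% of 200 peaks higher and 14.5% lower, with F13a1 up by 2.07 and Col4a1, a basement membrane collagen, by 1.75. Growth factor and receptor genes had 13.3% of 330 peaks higher and 6.97% lower. Flt3, a progenitor receptor kinase (5:147392209-147393948), had 21.7, 9.33 and 21.6 CPM in the Dex libraries, against 1.73, 1.64 and 1.37 CPM in the vehicle libraries, a rise of 3.43 ± 0.25. Plxna2, a semaphorin receptor, fell by 1.82, Pdgfb by 1.24 and Smad3, a carrier of TGF-beta signals, by 1.08.

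Chemokine and other G-protein-coupled receptor genes had 20.4% of 157 peaks higher and 7.01% lower, against 9.91% and 10.3% over all peaks. Cxcr4, the receptor of the chemokine CXCL12, had 21.5 kb away a peak of 50.2, 34.4 and 69.0 CPM in the Dex libraries, against 8.79, 7.86 and 6.33 CPM in the vehicle libraries, a rise of 2.73 ± 0.18, and Ccr1 rose by 1.19. The survival list had 9.55% of 157 peaks higher and 7.01% lower, near or under the shares of all tested peaks. Birc3, an inhibitor of apoptosis, had 97.1, 101 and 104 CPM in the Dex libraries, against 34.6, 49.4 and 35.1 CPM in the vehicle libraries, while Bmf, which promotes it, rose by 1.14. Cell cycle genes had 15.8% of 158 peaks higher and 9.49% lower, with Wee1, the kinase that delays mitosis, up by 1.70. MHC class II genes had 4 (7.14%) of 56 peaks higher and 4 lower. Housekeeping genes had 1 higher and 2 lower of 41, and at Gapdh the change was -0.29 (edgeR adjusted p = 0.0625, not called, but called under total-count scaling and with no count filter). The calls at Spred1, Nlrp3, Csf2, Usp18, Arntl, Klf6, Rxra, Col4a1, Pdgfb, Cebpa and Ccr1, and those at the starts of Tmed3 and F9, were lost without the replicate block. Without the replicate block glucocorticoid-induced genes had 73 higher and 6 lower of 247 peaks, and scavenging genes 24 and 1 of 226. Lipid genes had 5 and 10 of 250, and cytoskeleton and adhesion genes 10 and 15 of 483. Over all 59881 tested peaks that fit called 1734 higher and 1404 lower. The balance of the lipid and the cytoskeleton and adhesion lists thus rests on few peaks, and the other lists that leaned are not given for that fit.

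Peaks over microRNA genes were read as well, since microRNAs hold back sets of messages in macrophages by pairing through their seed. Of 150 microRNA genes in tested peaks, 12 lay in higher and 8 in lower peaks, shares below the 9.91% and 10.3% of all tested peaks. The 4 printed here are known in myeloid cells and were singled out after their values were seen. Capitals mark the seed, bases 2 to 8 of the mature sequence (RefSeq, GRCm38.p6), and no pair shares one.
mmu-miR-223-3p: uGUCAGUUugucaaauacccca
mmu-miR-21a-5p: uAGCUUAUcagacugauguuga
mmu-miR-146a-5p: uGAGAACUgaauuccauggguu
mmu-miR-511-3p: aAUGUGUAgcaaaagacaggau
The peak over Mir223, a regulator of myeloid maturation, had 286.5, 278 and 304.5 CPM in the Dex libraries, against 202, 205 and 211 CPM in the vehicle libraries, a rise of 0.49 ± 0.11. The wide peak over Mir21a and its host Vmp1 (11:86574604-86631011) had 1351, 2082 and 1355 CPM in the Dex libraries, against 1158, 1641 and 1208 CPM in the vehicle libraries. Those groups overlapped, since vehicle replicate 2 lay above Dex replicates 1 and 3. Mir146, whose product limits NF-kB signalling, had 55.1, 61.3 and 64.9 CPM in the Dex libraries, against 73.2, 74.8 and 89.3 CPM in the vehicle libraries, and fell by 0.39. Mir511, inside the mannose receptor gene Mrc1, had 24.6, 18.8 and 26.6 CPM in the Dex libraries, against 36.2, 38.2 and 39.2 CPM in the vehicle libraries, and fell by 0.70. A peak over a microRNA gene does not measure the mature microRNA.

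The named peaks were also read with Cort and IL4, whose comparisons share the 3 vehicle libraries with that of Dex and whose agents and doses differ, so values are given side by side without a test between them. At the Armc12 peak the log2 change was 4.76 ± 0.18 with Dex, 4.58 ± 0.18 with Cort and -0.20 ± 0.24 with IL4. At Cd163 it was 3.33 ± 0.13 with Dex, 3.28 ± 0.13 with Cort and -1.02 ± 0.16 with IL4. At Klf9 it was 4.04 ± 0.14 with Dex, 3.85 ± 0.14 with Cort and 2.42 ± 0.14 with IL4. Both steroids were thus far above 0 at these peaks, and the IL4 value was below 0 at Cd163 and above 0 at Klf9. Zbtb16, Tsc22d3 and Flt3 stood at 4.13, 2.28 and 2.95 with Cort and at -0.05, 0.33 and -0.05 with IL4. Per2 and Wee1 stood at 1.70 and 1.46 with Cort and at 1.87 and 1.64 with IL4. Of the losses, Mecom, Ifng and Itgal stood at -1.63, -1.70 and -1.26 with Cort and at -2.83, -3.40 and -3.60 with IL4. Lpl stood at -0.66 with Cort and 0.55 with IL4.

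Macrophage markers marked the cells as labelled: each of 10 had a tested peak nearby, with summed signals of 3630 to 4414 CPM over the Dex libraries, against 3338 to 3910 CPM over the vehicle libraries. Of their 81 peaks 16 (19.8%) were higher and 4 (4.94%) lower, against 9.91% and 10.3% over all peaks. Of 12 T and NK cell markers 5 had a peak, and Cd3e, Cd3g, Cd247, Cd8a, Trac, Nkg7 and Bcl11b had none, with sums of 53.5 to 79.8 CPM with Dex, against 58.3 to 74.6 CPM with vehicle. B cell markers had peaks near 2 of 8, with none for Cd79b, Pax5 or Ebf1, and their sum was 119 to 148 CPM with Dex, against 168 to 223 CPM with vehicle. The 2 lower peaks of the B cell list were both nearest to Ms4a1, which lies in the Ms4a cluster beside the gained Ms4a4a peak. Fibroblast markers had peaks near 2 of 11 (73.2 to 85.2 CPM with Dex, against 54.2 to 63.7 CPM with vehicle) and neutrophil markers near 7 of 11 (149 to 193 CPM with Dex, against 151 to 179 CPM with vehicle). Dendritic cell markers had peaks near 9 of 10 (356 to 379 CPM with Dex, against 337 to 462 CPM with vehicle), and osteoclast markers near 9 of 10 (706 to 903 CPM with Dex, against 724 to 827 CPM with vehicle). Erythroid and megakaryocyte markers had peaks near 3 of 9 and mast cell markers near 2 of 8. In bulk chromatin, a change in the number of cells that carry a mark and a change in the mark per cell cannot be told apart, and the part of these other markers in the results was not tested.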

How the data were processed

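H3K27ac and GR were each read as counts per peak over mm10. The authors deposited whole-number read counts, not normalized, in 1 table per target, with peaks shared by all its libraries. The submitters' processing notes name fastp, Bowtie2, SAMtools, MACS2 and featureCounts, with versions and settings not given in the sources used here. How peaks of several libraries were merged is not stated, and wider or merged peaks collect more reads. The columns named C were matched to vehicle by elimination. The input library was not analysed here.

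Of 63313 H3K27ac peaks, 59881 passed edgeR's filterByExpr by group. Counts were scaled by TMM and fitted with edgeR 4.0.16 in R 4.3.3 by quasi-likelihood over the 12 H3K27ac libraries, with group and replicate number as terms. The residual degrees of freedom were 6 and the biological coefficient of variation 0.112. Standard errors were taken as the size of the log2 change over the root of F. P-values were adjusted by Benjamini-Hochberg over all tested peaks, and a call was an adjusted p under 0.05. GR counts of 15 libraries were fitted the same way with batch as a term, at 900063 to 1981582 reads in peaks over the Dex and vehicle libraries. Library depth in H3K27ac peaks was 7451304 to 15695771. CPM values are TMM-normalised.

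Same-numbered libraries had deviations from their group means correlated at 0.268 to 0.678 over 18 pairs, and at 0.36 to 0.474 for Dex with vehicle. Over 36 pairs of other numbers the range was -0.449 to 0.0406. Deviations cancel out within a group, so a positive value at the same number pushes those of other numbers down. The labels do not say what the numbers mark. Replicate 1 had the fewest reads in peaks in each group, and the part of depth in these correlations was not tested. On simulated counts for the Dex comparison, over 57837 peaks, 91% of 200 peaks changed by 1 on the log2 scale were recovered, with 10 false calls. The changed peaks were drawn from those above median signal, and the counts followed the fitted model with pair effects built in. The simulation thus does not give the error rate of the real calls.

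Peaks were given to the nearest of 20005 named protein-coding genes of the RefSeq table (GRCm38.p6) within 50 kb, and a peak overlap was at least 1 bp. Named peaks were the 12 highest and 12 lowest log2 changes and the 8 largest gains and 8 largest losses in CPM among called peaks of at least median signal with a named gene within 50 kb and groups that do not overlap, at most 1 peak per gene, plus the 6 genes with the most called peaks each way, the longest runs, textbook genes, and for each list the genes with the smallest p. The peaks over starts, those with no gene, the microRNAs and the GR-bound promoters were chosen after their values were seen. The members and lists were chosen with earlier results of these data known. DESeq2 1.42.0, other scalings and filters, fits without the block and fits without each library were tried. Some genes that the rule names are not reported here.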

Additional observations from a re-analysis of the deposited data

Results flagged for a closer look

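Among 42 groups of 4 GR libraries, read at 21 GR peaks in the named H3K27ac peaks and promoters, 4 had a library far from the other 3, and about 1 in 20 groups would by chance. In the GR peak within the Mt1 promoter a Dex library stood at 24.6 CPM, the highest of its group. In the vehicle group single libraries stood highest at 8.49 CPM in the Tsc22d3 peak, at 14.2 CPM in the Drap1 peak and at 6.46 CPM in the Ube2s peak, in each case still below all 4 Dex libraries. H3K27ac groups held 3 libraries and were not tested this way.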

How the results depend on the processing

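None of the 146 named called peaks changed sign under the alternatives run for them, and the peaks named by fold or amount kept their calls, where tested, in each setting apart from the fit without the replicate block. Without the replicate block 1734 peaks were higher and 1404 lower (3138 called), and the gene lists held 248 called peaks against 841. With a log2 change of at least 1 also asked for, 1960 were higher and 2227 lower (4187 called), with 289 in the lists. Leaving out libraries gave 3452 to 5481 higher, 3241 to 5922 lower, 6693 to 10818 called and 496 to 805 in the lists. Those fits have fewer libraries. DESeq2 gave 4589 higher and 4752 lower, and total-count scaling 5033 and 7063, with 41.6% of called peaks higher against 48.9%. The share of higher peaks with a named gene nearby was 83.3% within 25 kb and 93.6% within 100 kb, and of lower peaks 75.2% and 90.3%. The share of higher peaks with a GR peak was 13.3% with filtered GR peaks alone, 37.8% without the replicate block, 26.0% with the compared groups alone, 24.6% under total-count scaling, 27.5% with DESeq2, 26.2% among filtered H3K27ac peaks, and 24.6% to 31.8% with libraries left out. For lower peaks it was 0.872% with filtered GR peaks alone, 3.85% without the block, 5.16% with DESeq2, 5.9% among filtered peaks, 1.3% with a log2 change of at least 1, and 4.02% to 5.63% with libraries left out. The cause of these shifts was not tested. Of 146 named called peaks 35 lost their call without the block. Filtered peaks cover 24 of the 40 peaks named by fold or amount.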
